A study of Mus musculus with 6 samples.

Results

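Immediate early genes were followed array by array in glomeruli, the filtering units of the kidney, of mice that lack Vhl in podocytes and of wild-type littermates. The genes were chosen by name: all probe sets annotated on the array as Fos, Fosb, Jun, Junb, Egr1, Atf3, Ier2, Ier3, Dusp1 or Nr4a1 were taken, which gave 11 of 45101 probe sets. Jun had 2 probe sets and each of the other genes 1. All 10 genes were among the 11168 genes that passed the filter on dim probe sets and were tested.

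In the 3 Vhl-deleted mice a podocin-Cre transgene, active in podocytes, excised floxed Vhl, whose product marks the hypoxia-inducible factors for degradation. Their parents carried 1 copy of the transgene and were homozygous for the floxed allele. The 3 littermates are labelled as wild-type controls without further detail of their alleles. All 6 mice were female and 6 weeks old, and mice with the deletion entered the study only if their urine at 4 weeks held no more albumin than the average of wild-type littermates. Glomeruli were isolated with magnetic beads, washed in salt solution, pelleted and frozen before RNA extraction, and each mouse gave 1 Affymetrix array. The whole glomerulus was measured, so cells other than podocytes, which keep Vhl, contribute to every value, and fewer cells of a type cannot be told apart from less RNA per cell.

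Immediate early genes are transcribed within minutes of a stimulus because the proteins that switch them on are already present in the resting cell. Growth factors, calcium, mechanical strain, wounding and the enzymatic dissociation of tissue are known to induce them. Most encode transcription factors of the AP-1, EGR or NR4A families, and others encode phosphatases or small regulators that later dampen the same signals. Their messenger RNAs are short-lived.

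The values are MAS5 signals, linear intensities given once for each probe set on each array, with every array scaled to the same trimmed mean of 500. The array medians lay between 94.6 and 107.5. They were lowest on wild-type array 2 (94.6) and Vhl-deleted array 3 (96.1), followed closely by wild-type array 3 (96.8). The ratio of 3′ to 5′ control probe sets, a measure of RNA quality, ran from 0.773 to 0.829 for Gapdh and from 1.30 to 1.38 for actin, and neither ratio set Vhl-deleted array 3 and wild-type array 2 apart from the others together. Vhl itself averaged 612 ± 6.46 in Vhl-deleted arrays and 727 ± 74.1 in wild-type arrays (SD, n = 3 each), a log2 change of -0.23 with a limma adjusted p of 0.943. Of 8 podocyte marker genes tested, the means over the list lay between 12.94 and 13.21 on the log2 scale in Vhl-deleted arrays and between 13.08 and 13.48 in wild-type arrays, so podocyte transcripts were abundant on every array.

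The 10 genes were high together on 1 array of each genotype. Vhl-deleted array 3 was the highest of its group and wild-type array 2 the highest of its group in 10 of 10 genes and in both Jun probe sets, where 18.8% of all genes tested had that pattern. These arrays were picked from the values of the same genes, so the count is a description and not a test. The mean log2 level of the 10 genes was 11.74, 11.49 and 13.18 in Vhl-deleted arrays 1, 2 and 3, against 11.17, 13.04 and 11.31 in wild-type arrays 1, 2 and 3. The range over the 6 arrays was 2.00 on the log2 scale, and the groups overlapped. The difference between genotypes was small beside this spread for 9 of the genes, and Ier3 was the exception.

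**Figure D1:**
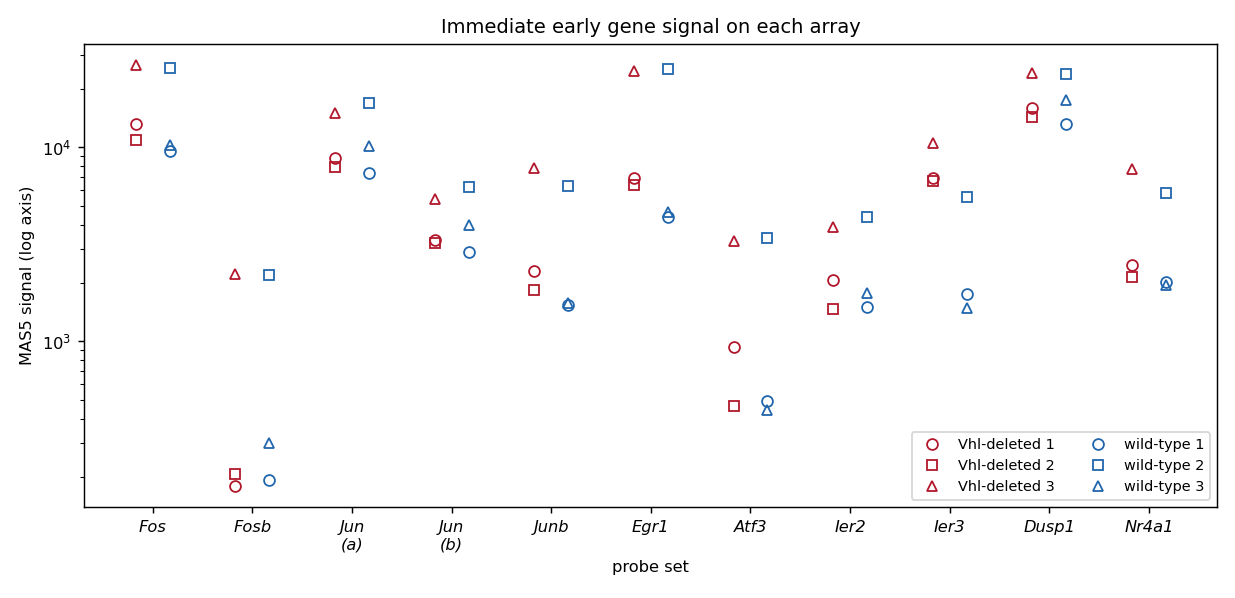
MAS5 signal (log axis) of each of the 11 probe sets on each array, with Vhl-deleted arrays in red left of wild-type arrays in blue; Jun (a) is probe set 1417409_at and Jun (b) is 1448694_at. Vhl-deleted array 3 and wild-type array 2 are the highest of their groups in every probe set, and only in Ier3 do all Vhl-deleted arrays lie above all wild-type arrays.

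Fosb, whose protein pairs with Jun proteins in the AP-1 transcription factor, varied most. The Fosb signal (probe set 1422134_at) was 179.1, 208.1 and 2231 in Vhl-deleted arrays 1, 2 and 3, against 193.9, 2190 and 299.1 in wild-type arrays 1, 2 and 3. Array 3 of the Vhl-deleted group was thus 12.5-fold above array 1 and 10.7-fold above array 2, and array 2 of the wild-type group was 11.3-fold above array 1 and 7.32-fold above array 3. Fos (1423100_at), the founding member of the family, had signals of 13256, 10859 and 26580 in Vhl-deleted arrays, against 9603, 25604 and 10270 in wild-type arrays. For Fos the corresponding ratios were 2.01 and 2.45 in the Vhl-deleted group and 2.67 and 2.49 in the wild-type group.

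Jun and Junb encode the partners of the Fos proteins. Jun (1417409_at) had signals of 8817, 7885 and 15099 in Vhl-deleted arrays, against 7414, 16984 and 10115 in wild-type arrays. The other Jun probe set (1448694_at) had 3337, 3230 and 5445 in Vhl-deleted arrays, against 2886, 6278 and 3962 in wild-type arrays. Both put the 6 arrays in the same order, with wild-type array 2 the highest and wild-type array 1 the lowest. Junb (1415899_at), which can oppose Jun at some promoters, had signals of 2317, 1830 and 7856 in Vhl-deleted arrays, against 1549, 6310 and 1573 in wild-type arrays. Its ratios between the highest and the lowest array were 4.29 in the Vhl-deleted group and 4.07 in the wild-type group, larger than those of Jun (1.91 and 2.29).

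Atf3, a stress-induced factor that binds cyclic AMP response elements and AP-1 sites, was second to Fosb in the ratio between its highest and lowest arrays in both genotypes. Its signal (1449363_at) was 932.2, 462.7 and 3306 in Vhl-deleted arrays, against 490.9, 3427 and 441.7 in wild-type arrays. Vhl-deleted array 1 lay between the low and the high arrays for this gene. Egr1, a zinc finger factor of the EGR family, had signals of 6982, 6394 and 24902 in Vhl-deleted arrays, against 4376, 25272 and 4640 in wild-type arrays (1417065_at). Nr4a1, an orphan nuclear receptor, had signals of 2462, 2154 and 7740 in Vhl-deleted arrays, against 2018, 5827 and 1953 in wild-type arrays (1416505_at). Nr4a1 followed the mean of the 10 genes most closely, with a root mean square distance of 0.12 on the log2 scale after both were centred over the 6 arrays, against 0.78 for Fosb, whose excursions were larger than the mean.

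The remaining regulators differed in how far they moved. Dusp1, a phosphatase that inactivates MAP kinases and so limits the response, had signals of 15974, 14327 and 24179 in Vhl-deleted arrays, against 13247, 23963 and 17571 in wild-type arrays (1448830_at). Its ratios between the highest and the lowest array, 1.69 in the Vhl-deleted group and 1.81 in the wild-type group, were smaller than those of Fosb, Atf3, Egr1, Junb, Nr4a1, Fos and Ier2 in each group. Ier2, a small nuclear protein gene, had signals of 3873 in Vhl-deleted array 3 and 4366 in wild-type array 2, and between 1469 and 2064 in the other 4 arrays (1416442_at). The highest signals of Fos, Egr1 and Dusp1, between 23963 and 26580, stood below the brightest probe set of any array (38237 to 44281), and whether such bright probe sets understate a ratio was not tested.

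The sequences before the start sites of Fos, Fosb, Atf3, Nr4a1 and Dusp1 are shown because these genes span the largest and the smallest excursions. They are the 250 bases before each start in RefSeq on GRCm38.p6, read 5′ to 3′ on the strand of the gene, and capitals mark TGACG, the core of the cyclic AMP response element, on either strand and TATAAA.
Fos, chr12:85473640-85473889, plus strand: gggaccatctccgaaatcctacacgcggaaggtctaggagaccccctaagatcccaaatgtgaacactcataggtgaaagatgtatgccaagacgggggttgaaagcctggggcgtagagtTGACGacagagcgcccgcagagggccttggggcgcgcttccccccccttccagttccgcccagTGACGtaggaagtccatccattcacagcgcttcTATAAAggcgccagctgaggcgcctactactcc
Fosb, chr7:19310046-19310295, minus strand: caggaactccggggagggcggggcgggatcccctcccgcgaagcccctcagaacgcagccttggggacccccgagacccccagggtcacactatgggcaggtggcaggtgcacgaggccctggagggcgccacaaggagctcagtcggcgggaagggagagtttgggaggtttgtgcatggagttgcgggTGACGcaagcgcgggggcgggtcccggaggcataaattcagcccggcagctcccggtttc
Atf3, chr1:191183334-191183583, minus strand: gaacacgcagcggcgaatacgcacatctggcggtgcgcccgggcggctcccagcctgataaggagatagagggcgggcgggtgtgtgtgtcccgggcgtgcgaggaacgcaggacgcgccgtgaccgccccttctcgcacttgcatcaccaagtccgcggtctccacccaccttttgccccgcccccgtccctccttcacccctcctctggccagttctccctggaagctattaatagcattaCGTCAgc
Nr4a1, chr15:101266596-101266845, plus strand: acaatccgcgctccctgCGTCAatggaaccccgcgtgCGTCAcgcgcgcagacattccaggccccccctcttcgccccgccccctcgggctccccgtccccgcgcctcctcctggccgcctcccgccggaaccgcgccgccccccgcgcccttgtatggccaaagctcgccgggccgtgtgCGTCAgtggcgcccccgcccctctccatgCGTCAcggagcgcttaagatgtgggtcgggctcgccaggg
Dusp1, chr17:26508473-26508722, minus strand: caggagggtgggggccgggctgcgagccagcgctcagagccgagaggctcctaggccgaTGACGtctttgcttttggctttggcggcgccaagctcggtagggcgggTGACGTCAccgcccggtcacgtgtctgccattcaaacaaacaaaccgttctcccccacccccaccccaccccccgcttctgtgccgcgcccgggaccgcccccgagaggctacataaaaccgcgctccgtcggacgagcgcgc

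Of the 10 genes, 8 were found by symbol among the promoters searched, and Egr1 and Ier2 were not. The search left out promoters on chr18, and shares of all promoters refer to those searched. TGACG was found on either strand in 6 of the 8 (Fos, Fosb, Junb, Atf3, Nr4a1 and Dusp1) and in 17.8% of the 32851 mouse promoters searched over the same length. Nr4a1 held 4 copies, Dusp1 3, Fos 2 and the others 1. The full palindrome TGACGTCA, which contains TGACG on both strands, was found in Dusp1 among the 8 and in 1.55% of all promoters. TATAAA was found in Fos, from 33 to 28 bases before the start, and in 12.4% of all promoters. The AP-1 site TGACTCA was found in 0 of the 8 and in 4.46% of all promoters, and the CArG box, the site of serum response factor, in 0 of the 8 and in 1.47% of all promoters. These matches describe letters within 250 bases and say nothing of elements farther away.

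**Figure D2:**
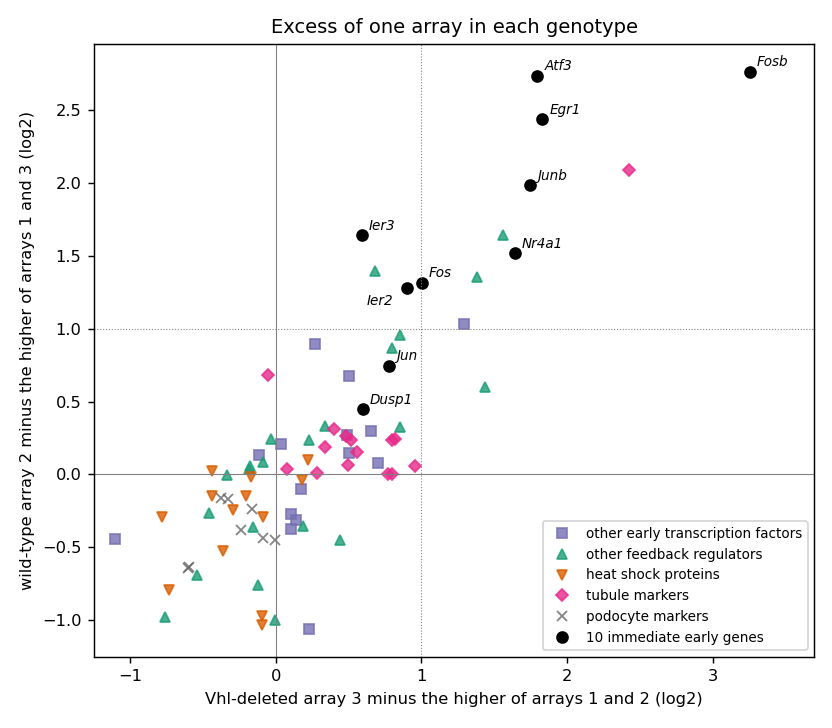
Excess of Vhl-deleted array 3 over the higher of the other Vhl-deleted arrays (x axis) against the excess of wild-type array 2 over the higher of the other wild-type arrays (y axis), both on the log2 scale, for the 10 immediate early genes and for genes of 5 other lists; dotted lines mark 1. The 10 genes have positive values on both axes, from 0.59 to 3.26 in Vhl-deleted and from 0.45 to 2.76 in wild-type arrays, while the heat shock and podocyte genes lie mostly at or below 0.

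An excess of 1 or more on the log2 scale over both other arrays of the genotype was counted next. No test was made, since the count rests on 1 array of each group, picked from the values of these genes. Vhl-deleted array 3 showed this excess in 6 of 10 immediate early genes, against 0.886% of all genes tested, and wild-type array 2 in 8 of 10, against 0.331%. Both arrays showed it in Fos, Fosb, Junb, Egr1, Atf3 and Nr4a1. In all, 23 genes (0.206%) did so, and 6 of the 23 were these. Another 12 were in none of the gene lists used here, among them Nfkbiz, Pm20d1, Wdfy1 and Mogat1. For Pm20d1 the excess was 1.97 in Vhl-deleted array 3 and 1.92 in wild-type array 2. Of the 10 immediate early genes, Ier2 and Ier3 showed an excess of 1 or more in wild-type array 2 alone, and Jun and Dusp1 in neither array. The ratio of Vhl-deleted array 3 to wild-type array 2 lay between 0.867 and 1.33 in 10 of the 11 probe sets and was 1.89 in Ier3. That range is set by these probe sets themselves, and the share of all genes tested inside it was not counted.

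The spread between arrays of one genotype was measured by the within-group SD of the log2 values. Its median was 0.859 over the 10 genes and 0.197 over all genes tested. Of the 10 genes, 9 lay above the 90th percentile of all genes tested (0.466), and Dusp1 (0.413) lay at percentile 87.2. The highest were Fosb at 1.86, Atf3 at 1.52, Egr1 at 1.27 and Junb at 1.14. Without Vhl-deleted array 3 and wild-type array 2, a choice made after their values were seen, the median was 0.193 over the 10 genes and 0.176 over all genes tested, and the 10 genes ranged from percentile 15.3 (Egr1) to percentile 91.0 (Atf3).

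**Figure D3:**
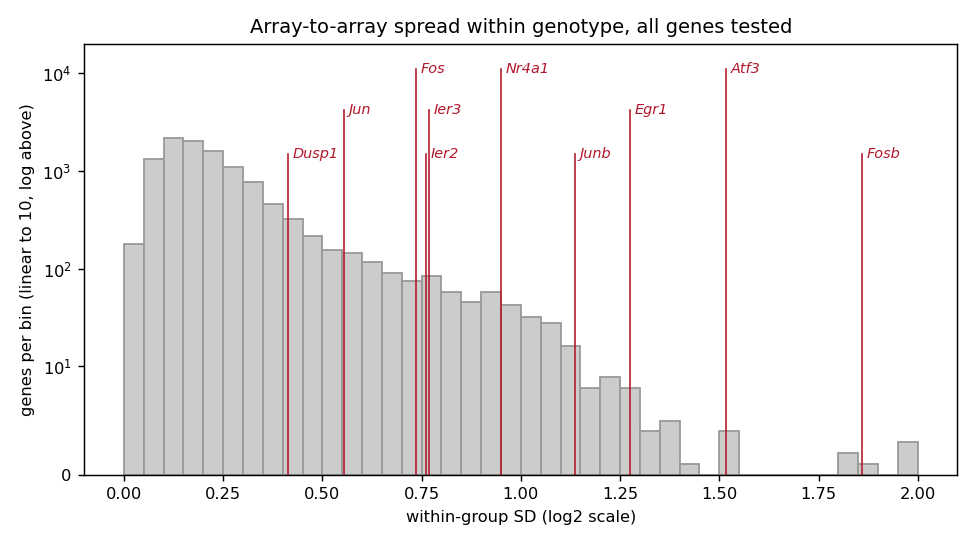
Histogram of the within-group SD on the log2 scale (x axis) over the 11168 genes tested, with genes per bin on an axis that is linear to 10 and logarithmic above, and a red line at each immediate early gene; line heights only separate the names, and values above the axis are counted in the last bin. The 10 genes run from 0.413 (Dusp1) to 1.86 (Fosb), to the right of the median gene at 0.197.

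The comparison of genotypes asked whether any of these genes differed between Vhl-deleted and wild-type glomeruli. By limma 0 of 10 passed an adjusted p of 0.05 over all genes, where 0.134% of all genes tested passed (15 of 11168, with 0.125% higher and 0.00895% lower in Vhl-deleted arrays). At an unadjusted p under 0.05 there was 1 of 10, Ier3, against 4.92% of all genes tested. Changes of the other 9 genes lay between -0.18 (Fosb) and 0.37 (Egr1 and Junb) on the log2 scale. Over all 10 genes 6 changes were positive and the median was 0.24, against 0.00 over all genes tested.

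Intervals were wide where the array-to-array spread was large. The change of Fosb was -0.18 (95% interval -2.89 to 2.52) and that of Atf3 was 0.30 (-1.91 to 2.51), so a 3-fold change in either direction lies inside both. For Egr1 the change was 0.37 (-1.49 to 2.23) and for Junb it was 0.37 (-1.29 to 2.03). The narrowest interval was that of Dusp1, whose change was -0.00 (-0.63 to 0.63), followed by Jun at -0.09 (-0.92 to 0.73). Averages of Dusp1 were 18160 ± 5277 in Vhl-deleted arrays and 18260 ± 5391 in wild-type arrays (SD, n = 3 each). A p above the threshold does not show that these genes were equal in the genotypes.

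The sign of these changes depended on single arrays. Over the alternatives Egr1 ran from -0.26 to 1.20, Junb from -0.27 to 1.03, Atf3 from -0.48 to 1.24, Fos from -0.18 to 0.65 and Nr4a1 from -0.30 to 0.79, lowest in each range either without Vhl-deleted array 3 or with the tubule marker level as a covariate, and highest without wild-type array 2. Fosb ran from -1.30 to 0.83, Jun from -0.38 to 0.23, Dusp1 from -0.23 to 0.21 and Ier2 from -0.38 to 0.46, each lowest without Vhl-deleted array 3 and highest without wild-type array 2. Without both arrays Egr1 was at 0.57 (95% interval 0.24 to 0.89, limma adjusted p = 0.975), with signals of 6982 and 6394 in Vhl-deleted arrays 1 and 2, against 4376 and 4640 in wild-type arrays 1 and 3. Junb was then at 0.39 (-0.02 to 0.81) and Fos at 0.27 (-0.12 to 0.66), and 0 of the 10 passed.

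**Figure D4:**
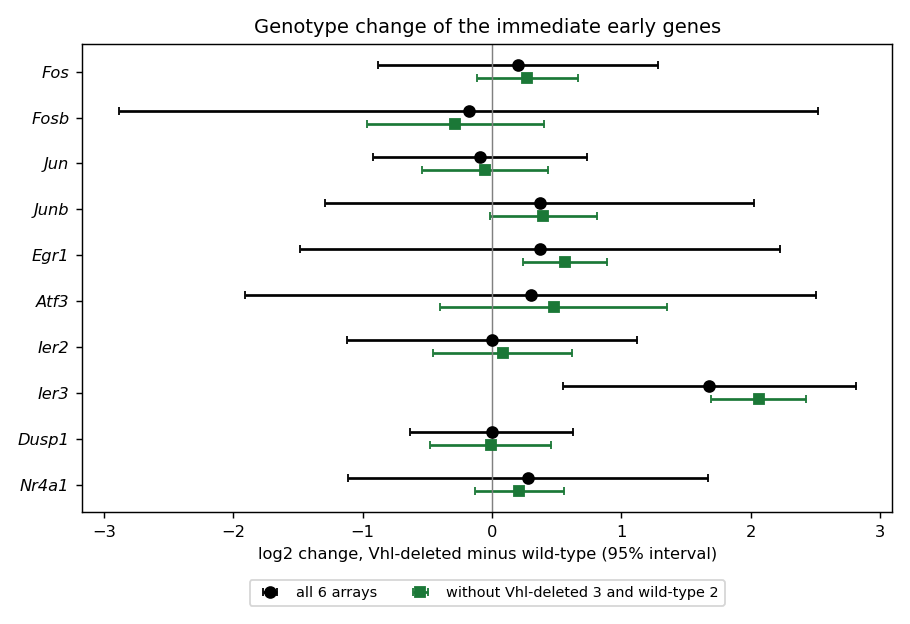
Log2 change, Vhl-deleted minus wild-type, with its 95% interval from limma for each of the 10 genes, from all 6 arrays (circles, n = 3 per group) and without Vhl-deleted array 3 and wild-type array 2 (squares, n = 2 per group). The intervals of 9 genes include 0 with all arrays, and that of Ier3 runs from 0.55 to 2.81.

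Ier3, an early gene that encodes a small regulator of cell survival, departed from the others. Its signal (1419647_a_at) was 6968, 6701 and 10505 in Vhl-deleted arrays 1, 2 and 3, against 1764, 5557 and 1479 in wild-type arrays 1, 2 and 3. All Vhl-deleted arrays lay above all wild-type arrays, which held for Ier3 alone of the 10 genes, and in either direction for 10.7% of all genes tested (Vhl-deleted higher in 5.05%). Within each genotype it kept the pattern of the others, with Vhl-deleted array 3 and wild-type array 2 the highest. The change was 1.68 on the log2 scale (SE 0.48, 95% interval 0.55 to 2.81), with a limma adjusted p of 0.735, so it did not pass. It stayed positive under all 21 alternatives, between 1.26 and 2.27, and its adjusted p ran from 0.0480 to 0.998. It passed without wild-type array 2 (2.27, adjusted p = 0.0480), and was at 2.06 (adjusted p = 0.0646) without both high arrays and at 1.59 (adjusted p = 0.188) with the mean of the other 9 genes as a covariate. The pair of high arrays and this covariate were chosen after seeing the data, and the difference between Ier3 and the other genes was not tested.

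The sequence before the Ier3 start is shown as that of the gene with the largest genotype change among the 10. It is given in the same way as above (GRCm38.p6), but with capitals at ACGTG. These letters are a form of the core of the element bound by hypoxia-inducible factors.
Ier3, chr17:35821463-35821712, plus strand: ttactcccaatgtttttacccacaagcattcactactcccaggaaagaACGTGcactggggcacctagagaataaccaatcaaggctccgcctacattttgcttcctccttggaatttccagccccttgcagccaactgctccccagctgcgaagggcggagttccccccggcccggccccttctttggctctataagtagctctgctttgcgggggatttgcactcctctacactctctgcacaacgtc
ACGTG was found on either strand in Ier3, from 202 to 198 bases before the start, and in Dusp1 of the 8 genes, and in 16.6% of all promoters searched. Dusp1 holds it as a palindrome, matched on both strands, and TGACG was not found in Ier3. Another form of the core, GCGTG, was not searched for, though the sequences printed for Fos, Atf3 and Nr4a1 hold it on either strand. The matches therefore cover ACGTG alone and do not show which promoters lack the core.

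Other early-response genes were taken from lists chosen by function. Of 15 other early transcription factors tested, 0 rose and 0 fell between genotypes, and the median change was -0.13. Of 22 other feedback regulators 0 passed, with a median of 0.00, and of 7 early secreted and surface proteins 0 passed, with a median of 0.35 (-0.12 without Vhl-deleted array 3). When 1 array was left out, the median ran from -0.28 to 0.09 for the transcription factors and from -0.13 to 0.21 for the feedback regulators. The lowest adjusted p in these 3 lists was that of Edn1, the endothelin gene, at 0.503, with signals of 503.3, 549.1 and 520.6 in Vhl-deleted arrays, against 379.1, 338.6 and 354.0 in wild-type arrays. Edn1 did not follow the 2 high arrays. Among constitutive kinases and factors upstream of the immediate early genes, 0 of 11 passed and the median change was -0.01.

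The pattern of the 2 high arrays was shared by some of these genes and not by others. An excess of 1 or more on both arrays was found in Csrnp1 among the 15 transcription factors, in Zfp36 and Btg2 among the 22 feedback regulators, in Cxcl1 among the 7 secreted proteins and in 0 of the 11 upstream kinases and factors. The mean of the other transcription factors was 10.74 in Vhl-deleted array 3 and 10.71 in wild-type array 2, and between 10.23 and 10.57 in the other 4 arrays. The mean of the other feedback regulators was 11.22 in Vhl-deleted array 3 and 11.19 in wild-type array 2, and between 10.64 and 10.94 in the others. Both lists had a wider within-group spread than the median gene, with median SDs of 0.383 and 0.372.

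The genes outside the 10 that were nearest to their mean pattern were, by the root mean square distance between centred log2 values over the 6 arrays, Btg2, Zfp36, Nfkbiz, Ppp1r15a, Apold1, Cxcl1, Wdfy1, Ap1s3, Id4 and Csrnp1. Their distances ran from 0.171 (Btg2) to 0.301 (Csrnp1), against 0.830 for the median of all genes tested. Btg2, an antiproliferative gene, had signals of 3694, 2904 and 9687 in Vhl-deleted arrays, against 1983, 8438 and 3283 in wild-type arrays. Zfp36, which encodes an RNA-binding protein that destabilizes short-lived messenger RNAs, had 2990, 2670 and 8855 in Vhl-deleted arrays, against 2537, 9921 and 3159 in wild-type arrays. For both, 1 array in each genotype was well above the other 2, as for Junb. Nfkbiz, a nuclear inhibitor of NF-kappa-B, had 782.7, 556.6 and 2253 in Vhl-deleted arrays, against 480.0, 2261 and 431.7 in wild-type arrays. Ppp1r15a, a stress-induced phosphatase subunit, had 1062, 866.6 and 2773 in Vhl-deleted arrays, against 873.1, 2214 and 971.8 in wild-type arrays. Nfkbiz, Ppp1r15a, Apold1, Wdfy1, Ap1s3 and Id4 were in none of the lists of early-response genes. Wdfy1 had 276.0, 243.4 and 901.7 in Vhl-deleted arrays, against 280.8, 1126 and 249.1 in wild-type arrays. Genotype changes of the 10 genes nearest in pattern lay between -0.13 and 0.47, and 0 of them passed. Each of these 10 changes turned sign under at least 1 alternative. The genes were picked for nearness to the mean pattern, so their distances, changes and turns of sign follow in part from that choice.

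**Figure D5:**
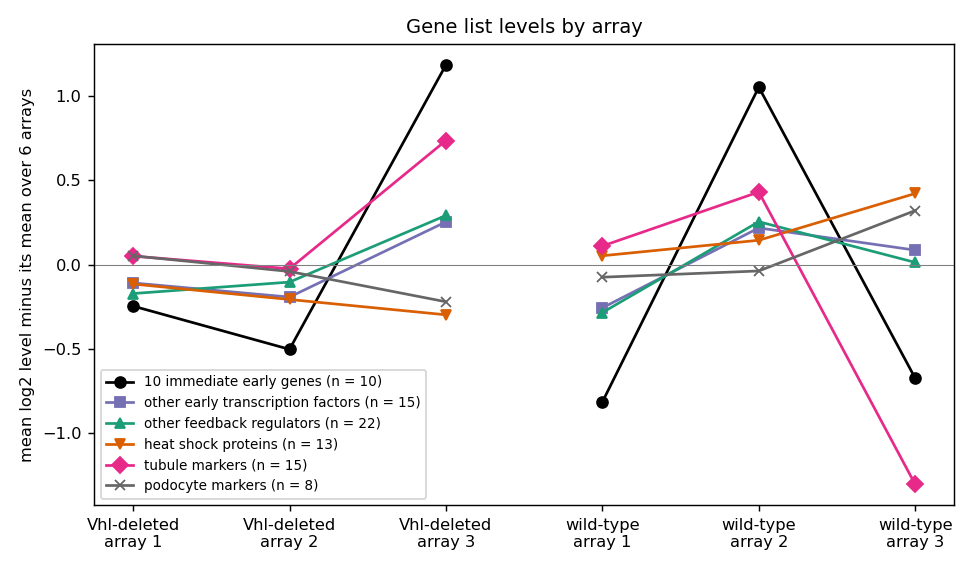
Mean log2 level of 6 gene lists on each array (y axis), each minus its own mean over the 6 arrays, with Vhl-deleted arrays left of wild-type arrays; lines join arrays of a genotype only to guide the eye. The immediate early genes are highest on Vhl-deleted array 3 and wild-type array 2, while heat shock proteins are lowest on Vhl-deleted array 3 and highest on wild-type array 3.

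Heat shock proteins, another family that stress induces, did not share the pattern. Their mean was 12.06, 11.97 and 11.87 in Vhl-deleted arrays 1, 2 and 3, against 12.23, 12.32 and 12.60 in wild-type arrays 1, 2 and 3, so Vhl-deleted array 3 was the lowest and wild-type array 3 the highest. Of 13 heat shock genes tested, 10 had negative changes and 0 passed, and the median change was -0.51 (-0.23 without wild-type array 3). In 9 of the 13 the genotypes did not overlap, in either direction, where 10.7% of all genes tested did not. Hmox1 was the only one of the 9 higher in Vhl-deleted arrays (479.3, 333.2 and 345.3, against 250.7, 255.0 and 203.3 in wild-type arrays). The others were lower, Hsph1 narrowly so (at most 3529.3 in Vhl-deleted and at least 3535.2 in wild-type arrays). In 0 of 13 were Vhl-deleted array 3 and wild-type array 2 both in excess by 1 or more. The difference between the heat shock and the immediate early genes was not tested.

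Tubule markers, transcripts of nephron segments outside the glomerulus, were also highest on these arrays within each genotype, though with a different order. The mean of 15 tubule markers was 12.21, 12.14 and 12.90 in Vhl-deleted arrays 1, 2 and 3, against 12.27, 12.59 and 10.85 in wild-type arrays 1, 2 and 3. Wild-type array 3 was the lowest of the 6 arrays for tubule markers, while for the immediate early genes it (11.31) was close to wild-type array 1 (11.17). In 13 of the 15 tubule markers Vhl-deleted array 3 and wild-type array 2 were the highest of their groups, where 18.8% of all genes tested had that pattern. Slc22a6, an organic anion transporter gene singled out after its values were seen, was the one with an excess of 1 or more on both, at 150.6, 167.5 and 1025 in Vhl-deleted arrays, against 155.9, 856.3 and 180.0 in wild-type arrays. No tubule marker was at 0 on any array, and the part of tubule RNA in the immediate early levels was not tested.

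Markers of other cells were also set against these arrays. Vhl-deleted array 3 and wild-type array 2 were both highest in 0 of 8 podocyte, 1 of 9 endothelial, 2 of 8 mesangial and 1 of 7 leukocyte markers tested, where 18.8% of all genes tested had that pattern, and differences between the lists were not tested. The podocyte mean was lowest on Vhl-deleted array 3 (12.94, against 13.21 and 13.12 in Vhl-deleted arrays 1 and 2). The leukocyte mean was 9.87, 9.82 and 10.27 in Vhl-deleted arrays 1, 2 and 3, against 9.64, 9.33 and 9.06 in wild-type arrays 1, 2 and 3, so it was highest on Vhl-deleted array 3 but not on wild-type array 2 within its group. Between genotypes 0 members of these 4 lists or of the tubule list passed, with median changes of -0.26 for podocyte, 0.09 for endothelial, 0.21 for mesangial, 0.67 for leukocyte and 0.57 for tubule markers. The tubule median rested on wild-type array 3, without which it was -0.02 with 6 of 15 changes positive, and the podocyte median was then -0.09. With the tubule marker level as a covariate the podocyte marker Cdkn1c, a cell cycle inhibitor gene, passed (0.61, limma adjusted p = 0.0481, against 0.48 and 0.789 without the covariate), and it passed under no other alternative, with adjusted p from 0.0588 to 0.998. The part of these cells in the immediate early levels was not tested.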

How the data were processed

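Arrays from 3 Vhl-deleted and 3 wild-type mice, numbered as biological replicates in the labels, were grouped by title. The deposited intensities were made by the authors with MAS5, per the submitters' processing notes (version not given in the sources used here), and the values show scaling to a 2% trimmed mean of 500. Arrays were never identical in value, and detection calls and scan dates were not used here. Symbols were taken from the platform annotation; 34741 of 34945 probe sets with 1 symbol matched RefSeq by Entrez number. Signals entered as log2(signal + 28), the 25th percentile of all values, which understates changes of dim genes. Probe sets in the upper 50% by mean signal (about 100 or more) were kept, the brightest for each gene; a gene can pass through the arrays where it is high. Genotypes were compared by limma (version 3.58.1, R 4.3.3, with lmFit and eBayes, trend on intensity), each adjusted p being Benjamini-Hochberg over the 11168 genes. The fit was also run on simulated data with known changes. Those data were drawn for each gene independently, so they held no differences shared by many genes of an array, and the fit was not tested with such differences. The number of arrays limits precision. The text names the 10 genes with every probe set, Vhl, the 10 genes nearest in pattern and, of each list's 3 lowest p, those a result needed; Slc22a6 was named after its values were seen. The genes and lists were chosen with earlier results of these data known. Alternatives changed scaling, pseudocount, filter, probe set, variance model, weights, replicate block, tubule covariate and threshold and left out each array; 3 more were chosen after seeing the data.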

Additional observations from a re-analysis of the deposited data

How the results depend on the processing

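The count of immediate early genes past the threshold was 0 under every alternative run except without wild-type array 2, when Ier3 passed (range 0 to 1 when leaving out 1 array). The count over all genes was 15, and was 8 in the upper 30% by mean, 35 with array weights, 35 with the tubule covariate, 1 with the replicate block, 1 without both high arrays, 9 with the mean of the other 9 genes as a covariate, and 1 to 14 when 1 array was left out; the causes were not tested, though leaving out arrays also leaves fewer samples. Whether replicate numbers pair the mice cannot be decided from the values, since the deviations of 3 arrays from their group mean depend on each other. Over genes, the deviations of same-numbered arrays from their group means correlated at -0.022, -0.408 and -0.513. No array correlated best with its own number, while Vhl-deleted array 3 and wild-type array 2 correlated at 0.580. Genes are not independent replicates. The replicate block left the changes of the 10 genes as they were. The median within-group SD of the 10 genes (0.859) ran from 0.702 (without wild-type array 2) to 0.961 (without Vhl-deleted array 1) when 1 array was left out, and the range of their mean (2.00) from 1.86 to 2.00. Median scaling gave 0.917 and 2.10, and leaving out both high arrays, a choice made after seeing the data, gave 0.193 and 0.570. Signs turned as follows. With array weights Fos was at -0.075, Junb at -0.13, Egr1 at -0.17, Atf3 at -0.27 and Nr4a1 at -0.19, and with the tubule covariate these were at -0.15, -0.20, -0.26, -0.48 and -0.20. Ier2 was at 0.018 with quantile normalization and at 0.083 without both high arrays. When 1 array was left out, changes ran from -0.18 to 0.65 for Fos, -1.30 to 0.83 for Fosb, -0.38 to 0.23 for Jun, -0.27 to 1.03 for Junb, -0.26 to 1.20 for Egr1, -0.46 to 1.24 for Atf3, -0.38 to 0.46 for Ier2, -0.23 to 0.21 for Dusp1 and -0.30 to 0.79 for Nr4a1. Among the genes nearest in pattern, array weights put Nfkbiz at -0.15, Ppp1r15a at -0.19, Apold1 at -0.25 and Id4 at -0.054, and the tubule covariate put Btg2 at -0.050, Nfkbiz at -0.28, Ppp1r15a at -0.22, Apold1 at -0.28 and Id4 at -0.12; Apold1 was at -0.016 with the mean of the other 9 genes as a covariate. When 1 array was left out, changes ran from -0.22 to 0.88 for Btg2, -0.60 to 0.54 for Zfp36, -0.24 to 1.09 for Nfkbiz, -0.36 to 0.56 for Ppp1r15a, -0.39 to 0.49 for Apold1, -0.20 to 1.06 for Cxcl1, -0.69 to 0.54 for Wdfy1, -0.57 to 0.39 for Ap1s3, -0.044 to 0.77 for Id4, -0.59 to 0.31 for Csrnp1 and -0.79 to 0.77 for Slc22a6. Slc22a6, a tubule marker, was at -0.016 with median scaling, -0.63 with array weights, -0.59 with the tubule covariate, -0.066 without both high arrays and -0.14 with the mean of the other 9 genes as a covariate. Changes of Vhl and of the 3 genes of lowest p in each list kept their sign under the alternatives run; Cdkn1c passed with the tubule covariate alone.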
